A study of Caenorhabditis elegans with 16 samples.

Results

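The fatty acid desaturases and elongases of *C. elegans* were followed in whole adult worms of 4 genotypes. The members were the 7 desaturase genes *fat-1* to *fat-7* and the 3 elongase genes *elo-1*, *elo-2* and *elo-5*, chosen by symbol, and all 10 were found among the 23758 genes listed in the deposited tables. RNA was sequenced on day 1 of adulthood from worms synchronised by egg-laying and kept at 20 °C on OP50 bacteria, with 4 libraries of each genotype. Wildtype worms, of the strain N2, carried neither change. The *ubql-1(tm1574)* worms carry a deletion in the ubiquilin-1 gene that leaves a reduced, truncated transcript. The *hsf-1* OE worms carry an integrated transgene array (uthIs235) in which the *sur-5* promoter, active in most somatic tissues, drives the heat shock transcription factor *hsf-1* with the *unc-54* 3′ UTR, beside a *myo-2* promoter reporter for the pharynx. The *hsf-1* OE; *ubql-1(tm1574)* worms came from a cross of these strains and carry both changes, and are called the strain with both changes below. Each genotype is 1 strain, so that an effect of the named change and of anything else in that strain cannot be told apart.

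Desaturases place double bonds into fatty acyl chains, and elongases lengthen the chains. In the worm, *fat-5*, *fat-6* and *fat-7* make monounsaturated fatty acids from saturated ones, *fat-2* turns oleic acid into linoleic acid, and *fat-3*, *elo-1*, *fat-4* and *fat-1* carry the chain on to the long polyunsaturated fatty acids, including the omega-3 series. The elongase *elo-2* acts on palmitic acid, and *elo-5* serves the branched-chain fatty acids. Much of this enzyme set is known from the intestine, the main fat-storing tissue of the worm, where the nuclear receptor *nhr-49*, the Mediator subunit *mdt-15* and the SREBP homologue *sbp-1* act on several of the genes.

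Total counts lay between 18202151 and 30524762 per library, and the 10 genes took 0.283% to 0.387% of them. The 3 files hold overlapping sets of libraries and were joined to 16 libraries. Counts of *ubql-1* were lower in the 8 mutant libraries, at 1272 to 1938 normalized counts, than in the other 8, at 3578 to 4212. Counts of *hsf-1* did not separate the libraries labelled *hsf-1* OE, at 1673 to 2496, from wildtype, at 2318 to 2608 (fitted log2 fold change -0.13, SE 0.13, adjusted p = 0.386, edgeR's quasi-likelihood test), and with the housekeeping scaling the value was 0.23, again not called. The strain with both changes, which carries the same array, held 2334 to 3136, and *hsf-1* was called higher there than in *ubql-1(tm1574)* (0.36, adjusted p = 0.00577) and than in wildtype (0.25, adjusted p = 0.0421; 0.159 with DESeq2). The transcript count of *hsf-1* thus did not bear out the label of the libraries labelled *hsf-1* OE alone, and each direction below is a direction between libraries so labelled. The count is of whole worms, germline included, and the part of tissue differences in it was not tested. In its other assays the paper reported more *ubql-1* mRNA, longer lifespan and longer survival of heat stress in *hsf-1* OE worms. Markers of several tissues moved with the same labels. Against wildtype, 7 of 7 intestine markers (5 of 7 with DESeq2) were called higher in the *hsf-1* OE libraries, with summed counts of 142445 to 176742 against 93967 to 109039. All 5 oocyte markers and 4 of 5 germline markers were called lower, with oocyte sums of 30567 to 57406 against 102022 to 143748, and all 6 sperm markers were higher, with sums of 7313 to 9505 against 1516 to 3993. Hypodermis and cuticle had 5 of 7 markers higher and 1 lower, and body wall muscle 3 of 4 higher. Of 4 neuron markers 2 were higher and 2 lower, and none of 3 pharynx markers was called. Over all genes 38.6% were called higher and 28.7% lower, and 31.2% and 33.1% with DESeq2. In whole worms, fewer cells of a type and less RNA per cell cannot be told apart, and the part of these tissue differences in the values below was not tested.

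With libraries scaled by edgeR's TMM method, few of the 10 genes were called between genotypes. A gene that was not called is not thereby shown to be unchanged. In the set labelled *hsf-1* OE against wildtype 1 of 10 was called at an adjusted p under 0.05, *fat-3*, which was higher. In that comparison 67.3% of the 14794 genes tested were called. In *ubql-1(tm1574)* against wildtype the same single gene was called, again higher, beside 8.31% of 14183 genes. In the strain with both changes against wildtype it was *fat-3* once more, beside 70.4% of 15125 genes. No member passed between the strain with both changes and *ubql-1(tm1574)*, where 59.1% of 15197 genes did, although 1 member, *elo-2*, had an unadjusted p under 0.05 and DESeq2 called none, beside 58.8% of all genes. None passed between the strain with both changes and *hsf-1* OE, where 0.932% of 15555 genes did, or in the interaction of both changes, where 0.658% of 15645 genes did. In each of these last comparisons 2 members, *elo-2* and *elo-5*, had an unadjusted p under 0.05, and DESeq2 called 1 and 2 members, beside 2.89% and 5.68% of all genes. With TMM factors and all libraries no member passed both the test and a 2-fold change in any comparison, where 0.55% to 26.2% of all genes did. The comparisons share libraries and are not independent of each other.

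**Figure D1:**
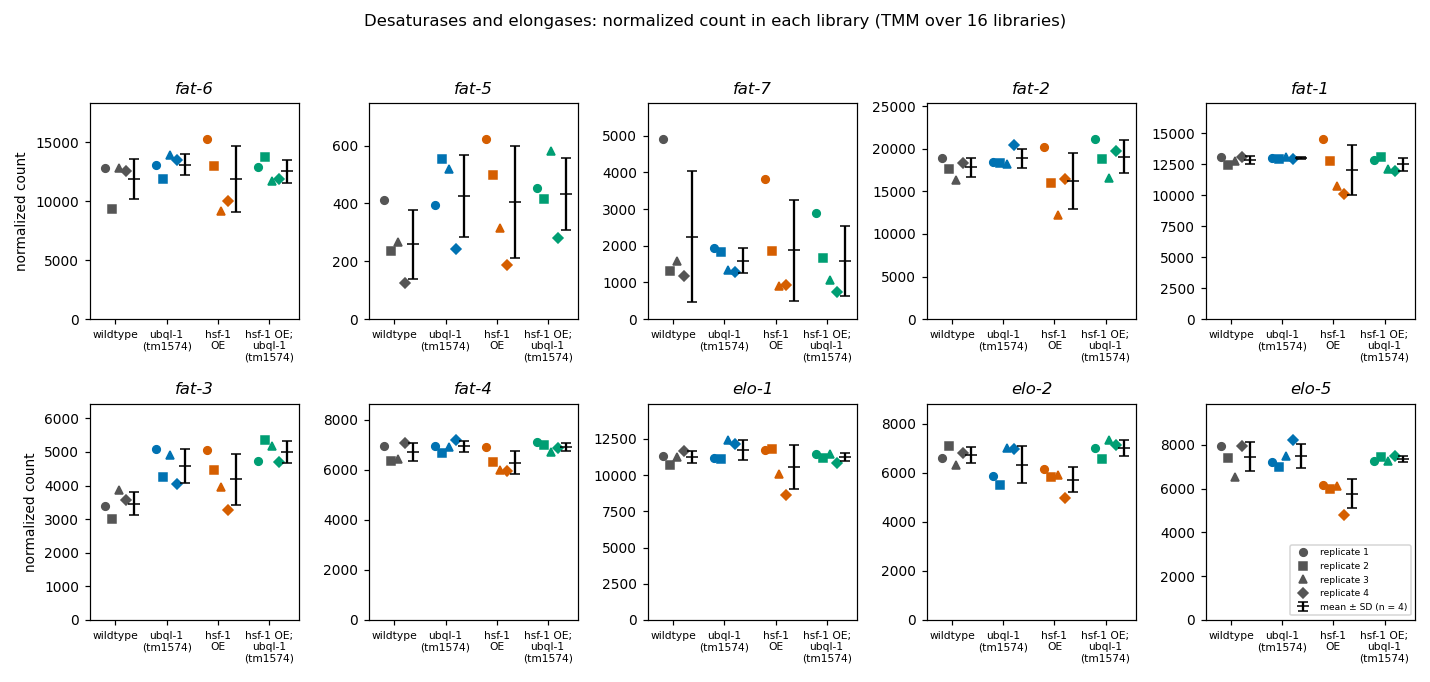
Normalized counts (y axis, from 0) of the 10 genes in each of 16 libraries, by genotype (x axis); symbols mark the replicate number and bars the mean ± SD of 4 libraries. The values of *fat-5* and *fat-7* spread 5.06-fold and 6.61-fold over the 16 libraries, and those of *fat-4* 1.21-fold.

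**Figure D2:**
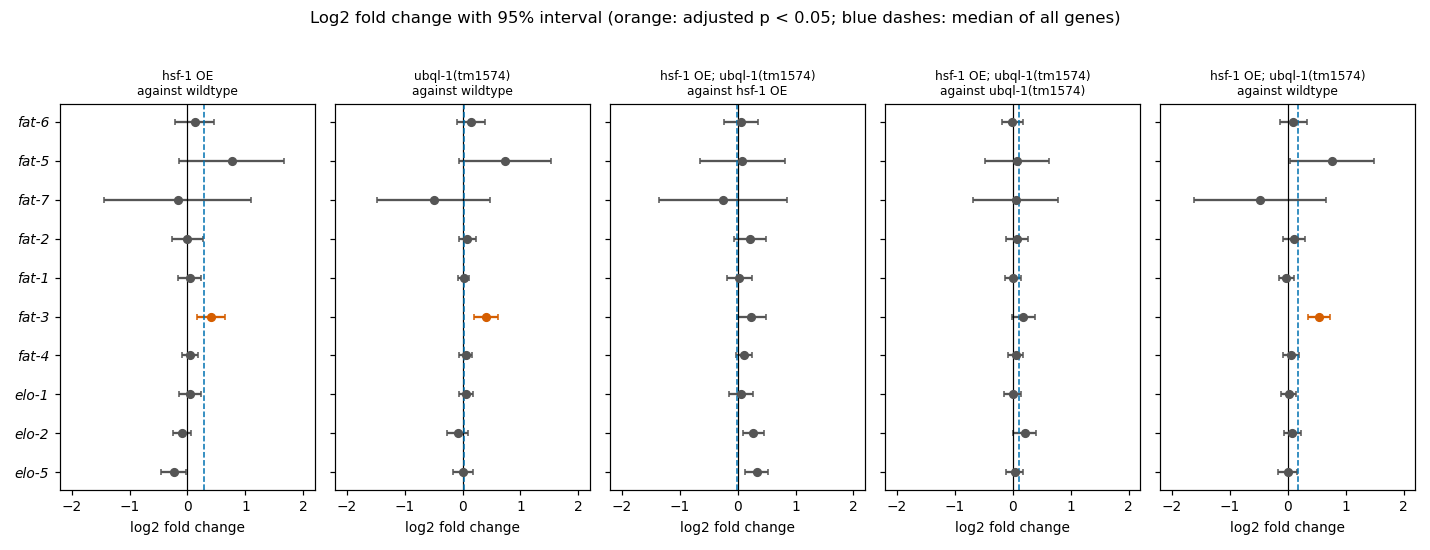
Fitted log2 fold change (x axis) of each gene with its 95% interval in 5 comparisons, from edgeR fits of the 8 libraries compared. The only called gene is *fat-3*, at 0.40, 0.41 and 0.55 against wildtype, and the dashed line marks the median of all genes tested, 0.28 in the first comparison.

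The sign of most members in *hsf-1* OE against wildtype depended on the scaling of the libraries. The median log2 fold change of all genes was 0.28 with TMM factors, 0.11 with DESeq2, 0.19 when all 16 libraries were scaled together, 0.31 without the low-count filter and 0.63 when libraries were scaled to *cdc-42*, *pmp-3* and *rpb-2*, which served the study as housekeeping genes. Higher and lower calls over all genes numbered 5711 and 4249 with TMM factors and 8350 and 2127 with the housekeeping scaling. Of the 10 members, 6 lay above 0 with TMM factors, 2 with DESeq2 and 10 with the housekeeping scaling. The difference between the members' median and the all-gene median was -0.24 with TMM factors, and 8 of 10 members lay below the all-gene median, the exceptions being *fat-3* and *fat-5*. A change of scaling alone moves both medians alike, so the same difference under DESeq2 or the housekeeping scaling adds no support. It was -0.40, with 9 of 10 below, when genes of low count entered, and ran from -0.34 without *hsf-1* OE replicate 1 to -0.15 without *hsf-1* OE replicate 4. In the strain with both changes against *ubql-1(tm1574)* and against wildtype it was -0.06 and -0.10, with 8 of 10 below in both, and -0.21 and -0.29 without the low-count filter. It had the other sign in the strain with both changes against *hsf-1* OE, at 0.11 with 9 of 10 members above the all-gene median, and there it ran from 0.04 with 5 of 10 above without *hsf-1* OE replicate 4 to 0.31 with 10 above without *hsf-1* OE replicate 1. In the interaction 7 of 10 lay above. With the housekeeping scaling, 8 members were called higher in *hsf-1* OE against wildtype beside 56.4% of all genes, 8 in the strain with both changes against *ubql-1(tm1574)* beside 46.8%, and 9 in the strain with both changes against wildtype beside 54.1%. The 3 housekeeping genes themselves were called lower in these comparisons with TMM factors.

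**Figure D3:**
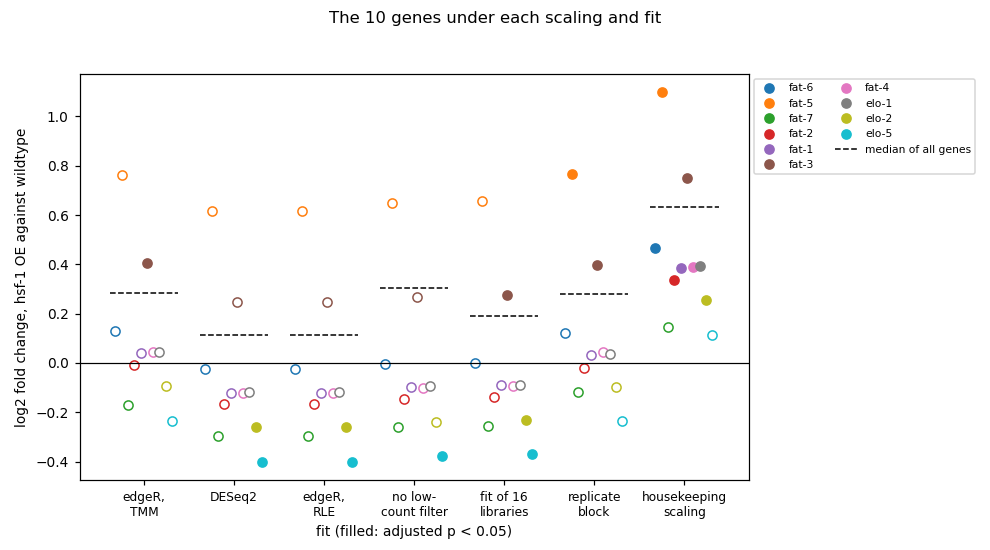
Log2 fold change of the 10 genes in *hsf-1* OE against wildtype (y axis) under 7 fits (x axis); filled points passed an adjusted p of 0.05 and dashes mark the median of all genes. The whole set shifts with the scaling, from 6 genes above 0 in the first fit to 10 in the last, and the dashes shift with it.

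Levels per length of exon put the genes in an order that held in every genotype at its ends. The level per kilobase of exon, as RPKM with TMM-scaled library sizes, averaged 605 over the 16 libraries for *fat-2*, 446 for *fat-6*, 444 for *elo-1*, 374 for *fat-1*, 321 for *elo-5*, 262 for *elo-2*, 183 for *fat-4*, 122 for *fat-3*, 68.3 for *fat-7* and 14.5 for *fat-5*. The gene lengths deposited by the authors differ from the exon lengths of WBcel235 most for *fat-6*, 3488 against 1166 bases, and for *fat-5*, 2335 against 1104 bases. With the deposited lengths the wildtype mean of *fat-6* was 143 rather than 429, and that of *fat-5* was 4.67 rather than 9.87.

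**Figure D4:**
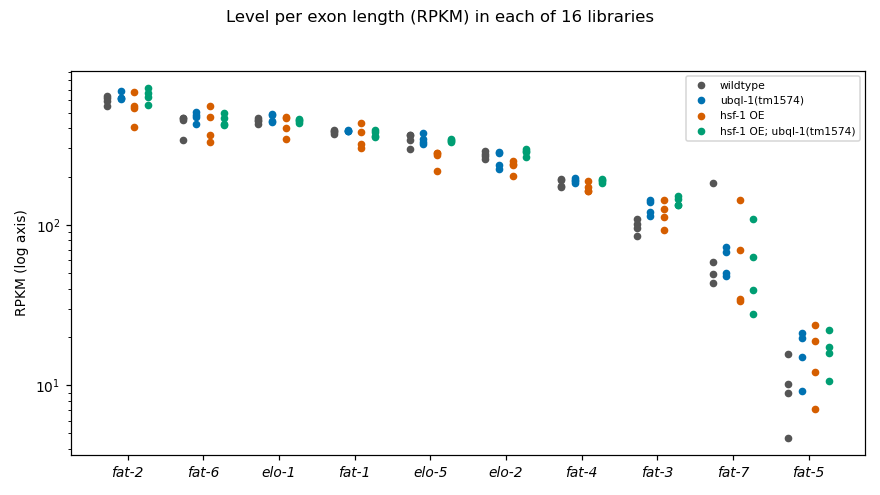
RPKM, counts scaled to exon length and TMM-scaled library size (y axis, log scale) in each of 16 libraries, coloured by genotype, with the genes ordered by their mean from *fat-2* at 605 to *fat-5* at 14.5. The genotypes of a gene lie close together compared with the distance between the highest and lowest genes.

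The stearoyl-CoA desaturases *fat-6* and *fat-7*, close paralogs that make oleic acid, differed in spread between libraries, *fat-7* varying far more. *fat-6* (VZK822L.1, chromosome IV, 11913690 to 11915687, minus strand, WBcel235) held 9163 to 15317 normalized counts over all libraries. *fat-7* (F10D2.9, chromosome V, 7151356 to 7153146, minus strand) held 4916, 1316, 1581 and 1162 normalized counts in wildtype replicates 1 to 4, and 1935, 1823, 1343 and 1284 in *ubql-1(tm1574)*. Replicates labelled *hsf-1* OE held 3821, 1864, 896 and 923, and the strain with both changes held 2900, 1677, 1055 and 744. In every genotype the highest *fat-7* value was in replicate 1, and the genotypes overlapped. Per length, *fat-7* made 27.8% of the summed level of *fat-5*, *fat-6* and *fat-7* in wildtype replicate 1 and 8.68% to 12.5% in the other wildtype libraries. Over the 16 libraries the Pearson correlation of *fat-6* and *fat-7* was 0.55 on the log2 scale, and 0.64 as deviations from the genotype means, a description over libraries that share their scaling. Reads shared by *fat-6* and *fat-7* may be counted for either or neither, so their separate levels are uncertain. Summed as 1 gene they were not called in any comparison.

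The fold changes of *fat-7* were too imprecise to carry a direction. Against wildtype its fitted log2 fold change was -0.17 (SE 0.56, 95% interval -1.43 to 1.09) in *hsf-1* OE, -0.49 (SE 0.43) in *ubql-1(tm1574)* and -0.48 (SE 0.52) in the strain with both changes, with adjusted p from edgeR of 0.794, 0.452 and 0.417. Without wildtype replicate 1 these values became 0.57, 0.25 and 0.24. For *fat-6* with TMM factors the intervals were narrower and contained 0 in all comparisons. Its fitted values ran from -0.06 in the interaction to 0.15 in *ubql-1(tm1574)* against wildtype. The housekeeping scaling called *fat-6* higher in *hsf-1* OE against wildtype. It did so too in the strain with both changes against *ubql-1(tm1574)* and against wildtype.

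The palmitoyl-CoA desaturase gene *fat-5* (W06D12.3, chromosome V, 17723780 to 17726825, plus strand) was the lowest of the set. It held 411, 235, 266 and 123 normalized counts in wildtype replicates 1 to 4. It held 394, 552, 520 and 242 in *ubql-1(tm1574)*. Replicates labelled *hsf-1* OE held 624, 498, 316 and 186. In the strain with both changes it held 453, 416, 582 and 280. Replicate 4 was the lowest library of each genotype, and the ranges overlapped. Compared within the same replicate number, *fat-5* was higher than wildtype in 4 of 4 numbers in *hsf-1* OE, 3 of 4 in *ubql-1(tm1574)* and 4 of 4 in the strain with both changes.

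Against wildtype the fitted log2 fold change of *fat-5* was 0.76 (SE 0.40) in *hsf-1* OE, 0.73 (SE 0.36) in *ubql-1(tm1574)* and 0.76 (SE 0.33) in the strain with both changes. Adjusted p from edgeR was 0.119, 0.183 and 0.0574, so none was called. With the replicate number as a block the same comparisons gave 0.77, 0.77 and 0.83 with adjusted p of 0.00577, 0.03 and 0.00297, and *fat-5* was called in all 3. These calls rest on replicate numbers that paired the libraries only in part. Without wildtype replicate 1, where *fat-5* was highest of its genotype, the values in *hsf-1* OE and in the strain with both changes became 1.08 and 1.07 with adjusted p of 0.0466 and 0.0129, and without replicate 4 of the strain with both changes its value was 0.95 with 0.0345. DESeq2 called *fat-5* in the strain with both changes (0.68, adjusted p = 0.0473), and the housekeeping scaling called it there (1.14, adjusted p = 0.014) and in *hsf-1* OE (1.10, adjusted p = 0.0339). Against *hsf-1* OE the strain with both changes was at 0.08 for *fat-5*, with a wide interval of -0.66 to 0.82, and against *ubql-1(tm1574)* at 0.07. The locus of *fat-5* overlaps the potassium channel gene *twk-42* on the other strand, and whether counting used strand is not given in the sources used here.

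With TMM factors and all libraries, the step from oleic to linoleic acid and the omega-3 desaturase showed no called difference. With the housekeeping scaling *fat-1* and *fat-2* were both called higher in *hsf-1* OE against wildtype, beside 56.4% of all genes. The same held in the strain with both changes against *ubql-1(tm1574)* and against wildtype, beside 46.8% and 54.1%. Against wildtype, *fat-2* was also called higher in the strain with both changes when its replicate 3 was left out. *fat-2* (W02A2.1, chromosome IV, 13323850 to 13326394, plus strand) had 17847 ± 1125 normalized counts in wildtype (SD, n = 4), 16234 ± 3266 in *hsf-1* OE, 18889 ± 1086 in *ubql-1(tm1574)* and 19099 ± 1929 in the strain with both changes. Its neighbour *fat-1* (Y67H2A.8, 13315642 to 13318783), 5066 bases upstream on the same strand, had 12824 ± 320, 12044 ± 2013, 12959 ± 87.3 and 12476 ± 548 in the same order. Both spread most in the libraries labelled *hsf-1* OE, where replicate 1 was the highest, at 20230 for *fat-2* and 14543 for *fat-1*. In *ubql-1(tm1574)* against wildtype the 95% interval of *fat-1* was -0.08 to 0.11 on the log2 scale, and that of *fat-2* was -0.06 to 0.23. In *hsf-1* OE against wildtype the intervals were -0.16 to 0.23 and -0.27 to 0.26.

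Of the front-end desaturases, which act on the polyunsaturated chain, *fat-3* was called higher than wildtype in all 3 other genotypes with TMM factors. *fat-4* was not called with these factors. *fat-3* (W08D2.4, chromosome IV, 9803026 to 9806118, plus strand) held 3402, 3018, 3869 and 3569 normalized counts in wildtype replicates 1 to 4. It held 5080, 4256, 4920 and 4048 in *ubql-1(tm1574)*, above every wildtype library. Libraries labelled *hsf-1* OE held 5062, 4453, 3970 and 3271, and replicate 4 fell within the wildtype range. In the strain with both changes the values were 4741, 5369, 5173 and 4700, again above every wildtype library. How many of all genes separate in this way was not counted.

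The fitted log2 fold change of *fat-3* was 0.55 (SE 0.09, adjusted p = 0.000385, edgeR) in the strain with both changes against wildtype, and every alternative scaling and every left-out library kept it called. In *ubql-1(tm1574)* against wildtype it was 0.41 (SE 0.09, adjusted p = 0.0393), and the call was lost in the fit of all 16 libraries (adjusted p = 0.0544) and when any library other than wildtype replicate 4 or *ubql-1(tm1574)* replicate 2 was left out, at values of 0.34 to 0.46 over all 8. Calls over all genes moved as well, from 594 higher and 584 lower with all libraries. They were 71 and 32 without *ubql-1(tm1574)* replicate 3, and 1113 and 840 without wildtype replicate 4. In *hsf-1* OE against wildtype *fat-3* was at 0.40 (SE 0.11, adjusted p = 0.00963), but at 0.25 with an adjusted p of 0.142 with DESeq2 and 0.131 with RLE factors, and at 0.27 with 0.15 without the low-count filter. Without *hsf-1* OE replicates 1, 2 or 3 it was at 0.19, 0.27 or 0.32, with adjusted p of 0.182, 0.148 and 0.0889. The steps from *ubql-1(tm1574)* and from *hsf-1* OE to the strain with both were 0.19 (SE 0.09) and 0.23 (SE 0.11) for *fat-3*, with adjusted p of 0.0887 and 0.472. The first was called with the replicate number as a block (adjusted p = 0.0491).

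*fat-4* (T13F2.1, 9799427 to 9802226), the last desaturase before arachidonic and eicosapentaenoic acid, ends 799 bases before *fat-3* on the same strand and had the smallest spread of the 10 genes. Its normalized count was 6700 ± 357 in wildtype, 6288 ± 454 in *hsf-1* OE, 6934 ± 213 in *ubql-1(tm1574)* and 6913 ± 170 in the strain with both changes (SD, n = 4). With TMM factors the fitted log2 fold change of *fat-4* lay between 0.04 and 0.11 in the 5 comparisons, and all 5 intervals contained 0. The housekeeping scaling called *fat-4* higher in the same comparisons as *fat-1* and *fat-2*.

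The elongases *elo-2* and *elo-5* were lowest in the libraries labelled *hsf-1* OE with TMM factors, although with the housekeeping scaling *elo-5* was lowest in wildtype and *elo-2* in *ubql-1(tm1574)*. *elo-5* (F41H10.7, chromosome IV, 5374598 to 5377275, minus strand) held 7953, 7396, 6550 and 7939 normalized counts in wildtype replicates 1 to 4, and 7207, 7005, 7501 and 8244 in *ubql-1(tm1574)*. It held 6185, 5990, 6142 and 4775 in *hsf-1* OE, and 7246, 7430, 7276 and 7496 in the strain with both changes. With all 16 libraries scaled together, each *hsf-1* OE library thus lay below every library of the other genotypes. *elo-2* (F11E6.5, chromosome IV, 17466060 to 17467408, minus strand) held 6596, 7104, 6336 and 6801 in wildtype and 6144, 5846, 5916 and 4976 in *hsf-1* OE, which did not overlap. How many of all genes separate in these ways was not counted, so neither separation is read as particular to these genes. In *ubql-1(tm1574)* it held 5851, 5505, 7020 and 6957, across the *hsf-1* OE range, and in the strain with both changes 6997, 6570, 7352 and 7137.

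**Figure D5:**
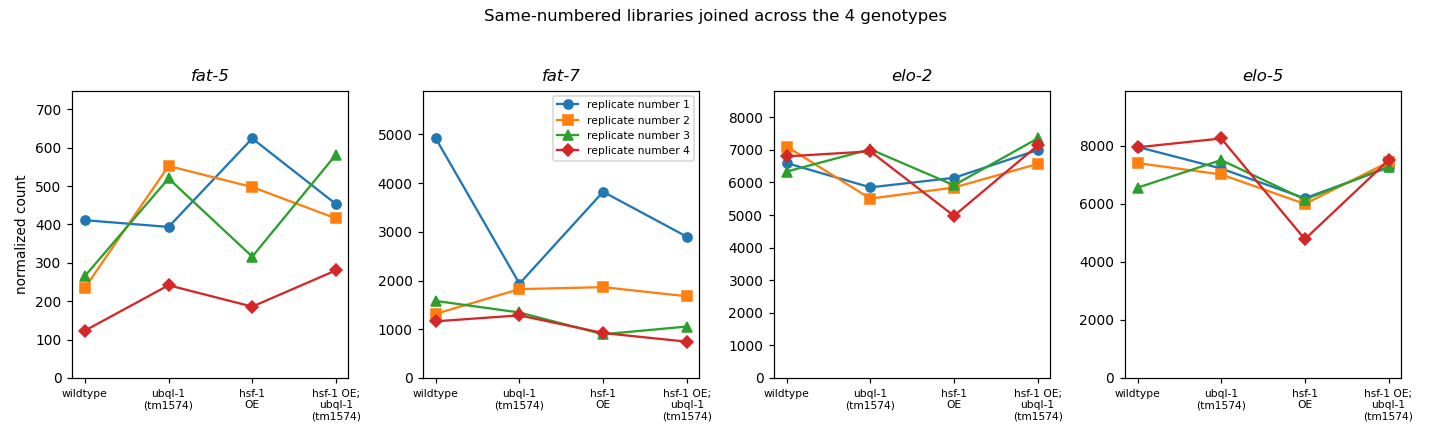
Normalized counts (y axis, from 0) of *fat-5*, *fat-7*, *elo-2* and *elo-5* by genotype (x axis), with lines joining libraries of the same replicate number. Replicate 1 is highest for *fat-7* and replicate 4 lowest for *fat-5* in every genotype, and *elo-5* is lowest in *hsf-1* OE for all 4 numbers. Counts are scaled by TMM factors over 16 libraries, and how many of all genes do the same was not counted.

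The size of that dip depended on the scaling. In *hsf-1* OE against wildtype the fitted log2 fold change of *elo-5* was -0.24 (SE 0.10, adjusted p = 0.0507) and that of *elo-2* was -0.09 (SE 0.07, adjusted p = 0.248) with edgeR and TMM factors, neither called. DESeq2 gave -0.40 for *elo-5* and -0.26 for *elo-2* with adjusted p of 0.00317 and 0.0224, and both were also called with RLE factors and in the fit of all 16 libraries. Without the low-count filter only *elo-5* was called (-0.38, adjusted p = 0.019). With the housekeeping scaling the sign turned, to 0.11 for *elo-5* and 0.26 for *elo-2*, the latter with an adjusted p of 0.0147. *elo-5* was called when wildtype replicate 3 (-0.31) or *hsf-1* OE replicates 1 to 4 (-0.38, -0.36, -0.37 and -0.26) were left out singly, and *elo-2* without *hsf-1* OE replicate 1 (-0.25).

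Between the strain with both changes and *hsf-1* OE, where few genes differed and the scalings lay closer, *elo-5* was at 0.33 (SE 0.09) and *elo-2* at 0.27 (SE 0.08) on the fitted log2 scale. Their unadjusted p were 0.00403 and 0.00786 and their adjusted p 0.161 and 0.22 (edgeR). *elo-5* was called with DESeq2 (adjusted p = 0.0299) and with the replicate number as a block (0.0438), and *elo-2* was called by neither (0.0667 and 0.0573). In the interaction, the change on *ubql-1(tm1574)* with *hsf-1* OE minus that without, *elo-2* was at 0.38 (SE 0.12, adjusted p = 0.132) and *elo-5* at 0.35 (SE 0.12, adjusted p = 0.154). DESeq2 called both, with adjusted p of 0.014 and 0.0394, and edgeR called *elo-2* without *hsf-1* OE replicate 1 (0.42, adjusted p = 0.0465). Over all genes that left-out fit called 1165 higher and 494 lower of 15846, where the fit of all libraries called 31 and 72 of 15645. In the strain with both changes against *ubql-1(tm1574)*, *elo-2* was at 0.21 (SE 0.09, adjusted p = 0.0615) and was called with the replicate number as a block (0.0142) and without *ubql-1(tm1574)* replicate 3 or 4 (0.27 and 0.25). The locus of *elo-5* overlaps F41H10.3 on the other strand.

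*elo-1* (F56H11.4, chromosome IV, 9526359 to 9528350, plus strand), which lengthens polyunsaturated chains, had 11234 ± 420 normalized counts in wildtype, 10566 ± 1514 in *hsf-1* OE, 11719 ± 680 in *ubql-1(tm1574)* and 11235 ± 296 in the strain with both changes (SD, n = 4). With TMM factors its fitted log2 fold change lay between 0.00 and 0.07 in the 5 comparisons, and every interval contained 0. The housekeeping scaling called *elo-1* higher in the same comparisons as *fat-1* and *fat-2*.

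The order of the genotypes was compared for each gene by an exact permutation test between neighbours in the order of mean log2(normalized count + 1). Which genotypes were neighbours was set by these same counts, so each p is a description. Over the 30 neighbouring steps, 1 had libraries that did not overlap, the step of *elo-5* from *hsf-1* OE to the strain with both changes (0.36 on the log2 scale, two-sided exact p = 0.0286, 0.857 after adjustment over the 30 steps). That p is the smallest that 4 against 4 libraries allow. With TMM factors over 16 libraries *hsf-1* OE was the lowest genotype for *fat-1*, *fat-2*, *fat-4*, *fat-6*, *elo-1*, *elo-2* and *elo-5*, wildtype was the lowest for *fat-3* and *fat-5*, and the strain with both changes for *fat-7*. In the fits of the 8 libraries of *hsf-1* OE and wildtype, *fat-1*, *fat-4*, *fat-6* and *elo-1* were at 0.04, 0.04, 0.13 and 0.04, the reverse of that order, and none was called. With the housekeeping scaling wildtype was the lowest for 8 genes and *ubql-1(tm1574)* for *fat-7* and *elo-2*. With TMM factors over 16 libraries, from the lowest to the highest genotype, the libraries did not overlap for *fat-3*, *elo-2* and *elo-5*. The lowest and highest genotype were picked by these same means. How many of all genes separate in this way, or at a neighbouring step, was not counted. The separations are therefore not read as particular to the members.

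Several members moved together from library to library. Over the 16 libraries the Pearson correlation of log2 values was 0.84 between *fat-1* and *elo-1*, 0.83 between *fat-2* and *fat-4*, 0.81 between *fat-1* and *fat-6* and 0.79 between *elo-2* and *elo-5*. As deviations from the genotype means the same pairs gave 0.82, 0.75, 0.84 and 0.72. These values are descriptions over libraries that share their scaling. Among 10369 other genes with a mean of at least 100 normalized counts, *fat-4* stood second for *fat-2*, *fat-1* first for *fat-6* and *elo-5* second for *elo-2*. The nearest gene was C18D11.3 for *fat-1* (0.92), *cah-5*, a carbonic anhydrase family member, for *fat-3* (0.86), *nhr-76*, a nuclear receptor, for *fat-5* (0.86), C30G12.2 for *fat-7* (0.87), D1086.12 for *elo-1* (0.91) and T16G12.3 for *elo-5* (0.91).

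Among the other elongases, genes of low level rose far more than any member. Of 6, 3 were called higher and 1 lower in *hsf-1* OE against wildtype, with a list median of 1.31 on the log2 scale beside 0.28 for all genes, of which 38.6% were called higher and 28.7% lower. *elo-4* went from 39.6 ± 22.1 normalized counts in wildtype to 230 ± 36.0 (log2 fold change 2.66, adjusted p = 0.000342, edgeR), *elo-7* from 40.9 ± 19 to 235 ± 36.7 (2.65, adjusted p = 0.000257) and *elo-8* from 90.5 ± 37.5 to 459 ± 35.5 (2.48, adjusted p = 0.000161; SD, n = 4). All 6 sperm markers rose in the same comparison, with a median of 1.89, and 5 of 7 hypodermis and cuticle markers rose, with a list median of 4.70. Of the remaining hypodermis and cuticle markers *lin-26* fell (-0.69, adjusted p = 8.99e-05, edgeR) and *col-19* was at 0.13 (adjusted p = 0.248), with means of 50543 normalized counts in wildtype and 50516 in *hsf-1* OE. The part of these tissues in the values of *elo-4*, *elo-7* and *elo-8* was not tested. With DESeq2 and with the housekeeping scaling all 3 were again called higher, beside 31.2% and 56.4% of all genes. *elo-3*, the called lower gene, was at -0.17 (adjusted p = 0.0296), and at 0.18 with the housekeeping scaling. The elongase *elo-6*, which works with *elo-5* on branched chains, was at -0.08 (adjusted p = 0.67), and in the strain with both changes against *hsf-1* OE at 0.35 (adjusted p = 0.30).

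Enzymes that supply the substrates were lower or not called in *hsf-1* OE against wildtype with TMM factors. Of 5 genes of fatty acid synthesis 2 fell, the ATP citrate lyases *acly-2* (-1.01, adjusted p = 0.000296, edgeR) and *acly-1* (-0.72, adjusted p = 0.0014), while the acetyl-CoA carboxylase *pod-2* was at 0.14 (adjusted p = 0.194) and the fatty acid synthase *fasn-1* at 0.08 (adjusted p = 0.52). Of 4 partners in elongation 1 fell, the acyl-CoA synthetase *acs-1* (-0.64, adjusted p = 0.0091). Among 5 electron donors T05H4.4 was higher (1.27, adjusted p = 0.0043), from a mean of 19.7 normalized counts in wildtype, and *hpo-19* lower (-0.33, adjusted p = 0.00492), though at 0.02 with the housekeeping scaling. The median over the synthesis list was -0.09 and over the elongation partners -0.12, beside 0.28 for all genes, of which 28.7% were called lower, and every gene of both lists lay below the all-gene median. With the housekeeping scaling, 3 genes of fatty acid synthesis were called higher and 2 lower, and 3 partners in elongation were called higher, beside 56.4% of all genes called higher and 14.4% lower. *acly-2* and *acly-1* were the lower ones there, at -0.66 and -0.37, and *acs-1* was at -0.30 (adjusted p = 0.112). Electron donors counted 4 higher and none lower with that scaling. *acly-1* and *acly-2* were also lower in the strain with both changes against *ubql-1(tm1574)*, at -0.40 and -0.68, where *pod-2* was called higher (0.27, adjusted p = 0.0198).

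Of 10 regulators of the desaturases, 6 fell and 2 rose in *hsf-1* OE against wildtype with TMM factors, so that the share called was near the 67.3% of all genes, of which 28.7% fell and 38.6% rose. The nuclear receptor *nhr-66* was at -0.73 (adjusted p = 0.000418, edgeR), the SREBP-cleavage activator homologue *scp-1* at -0.57 (adjusted p = 0.000716) and *paqr-1*, an adiponectin receptor homologue, at -0.53 (adjusted p = 0.000677). Those that rose were *nhr-80*, a nuclear receptor acting on *fat-6* in worms, at 0.49 (adjusted p = 0.032) and *sbp-1* at 0.47 (adjusted p = 0.0103). *nhr-49* was at -0.26 (adjusted p = 0.0274), though at 0.09 with the housekeeping scaling, and *mdt-15* was at 0.05 (adjusted p = 0.634). With the all-gene median at 0.28, 8 of 10 lay below it. Under DESeq2 none rose and 6 fell, where 31.2% of all genes rose and 33.1% fell. With the housekeeping scaling 3 rose and 3 fell, where 56.4% of all genes rose and 14.4% fell. With that scaling *nhr-66*, *scp-1* and *paqr-1* were again called lower, at -0.39, -0.22 and -0.19. None of the 10 was called in *ubql-1(tm1574)* against wildtype or in the strain with both changes against *hsf-1* OE.

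Of 8 genes that build the fatty acids into lipids, 2 rose and 1 fell in *hsf-1* OE against wildtype, beside 38.6% and 28.7% of all genes. *cept-1*, a choline/ethanolamine phosphotransferase, was at 0.41 (adjusted p = 0.014, edgeR) and *pmt-1*, a methyltransferase of phosphatidylcholine synthesis, at 0.31 (adjusted p = 0.00519). *mboa-2* was at -0.31 (adjusted p = 0.0364), and at 0.03 with the housekeeping scaling. The median of the list was -0.08, beside 0.28 for all genes. DESeq2 called none higher and 4 lower, beside 31.2% and 33.1% of all genes. The housekeeping scaling gave 3 higher and none lower, beside 56.4% and 14.4%.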

How the data were processed

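RNA was collected from whole day 1 adults of 4 genotypes, with 4 libraries each, purified on poly-dT beads and sequenced as paired ends. Per the submitters' processing notes and the paper's methods, the authors aligned reads with HISAT2 2.0.5 to WBcel235 and counted them per gene with featureCounts 1.5.0-p3. The deposited values used are these raw counts in 3 tables of 8 libraries, which list genes with a sum of at least 2 counts over their libraries; 4.57% of cells, for genes a table does not list, were set to 0. The 48 columns of normalized values per library were not used, and neither were the authors' fold changes and p-values. The deposited files give gene lengths, which here give way to exon bases of the WBcel235 annotation. Symbols came from the RefSeq gene table by locus tag (23180 of 23758 IDs matched).

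The main test was edgeR 4.0.16 (R 4.3.3), quasi-likelihood F test, two-sided, with TMM factors and filterByExpr, on the 8 libraries compared (16 for the interaction). P-values were adjusted by Benjamini-Hochberg over all genes tested, and a gene was called at an adjusted p under 0.05. Normalized counts were scaled over 16 libraries together, so that their ratios differ from fitted fold changes by the scaling. Alternatives were DESeq2 1.42.0, RLE factors, housekeeping scaling, no low-count filter, 1 fit of 16 libraries, a replicate block, each library left out, a 2-fold limit and *fat-6* and *fat-7* summed. Checks on simulated data recovered changed genes.

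Whether replicate numbers pair the libraries was checked by correlating deviations from genotype means over 11937 genes with a mean of at least 50 normalized counts. The lowest same-number correlation was 0.102 (*hsf-1* OE and wildtype, replicate 1), above the limit of 0.1, and 0.492 between the strain with both changes and its *hsf-1* OE parent. Over 10370 genes with a mean of at least 100 the lowest was 0.0738, so the pairing of that replicate is weak. Over the 11937 genes, *hsf-1* OE replicate 1 correlated more with wildtype replicate 2 (0.390), as did *ubql-1(tm1574)* replicate 1 (0.434 against 0.234). Only 2 *hsf-1* OE libraries correlated best with wildtype of their own number, against 3 libraries in each other comparison. Different numbers averaged -0.0890 in *hsf-1* OE against wildtype, an average of values of both signs. There replicates 1 and 2 correlated positively with each other across the genotypes, as did 3 and 4. Replicates 1 and 2 correlated negatively with 3 and 4. *hsf-1* OE replicate 3 was at 0.403 with wildtype replicate 4 and at -0.520 with wildtype replicate 2. *hsf-1* OE replicate 1 was at -0.387 with wildtype replicate 3. The numbers thus pair the libraries only in part, and the replicate block and same-number counts rest on them.

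The 10 genes, the gene lists and the marker lists were chosen with earlier results of these data known. All members are described. From each list up to 4 genes with the largest called change in *hsf-1* OE against wildtype are named, and *sbp-1*, *nhr-49*, *mdt-15*, *pod-2*, *fasn-1* and *elo-6* were named after their values were seen. P-values measure the spread between these libraries. Depth of 18202151 to 30524762 counts gives the lowest member, *fat-5*, over 100 counts in every library.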

Additional observations from a re-analysis of the deposited data

Results flagged for a closer look

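In 4 of the 40 sets of 4 libraries (10 genes in 4 genotypes) 1 library lay far from its group, where chance alone marks about 1 in 20 sets. These were *fat-7* in wildtype replicate 1 at 4916 normalized counts, *fat-6* in wildtype replicate 2 at 9321, *fat-2* in *ubql-1(tm1574)* replicate 4 at 20512 and *elo-5* in *hsf-1* OE replicate 4 at 4775. The effect of *hsf-1* OE on *elo-2* ran opposite ways in the 2 backgrounds when libraries of the same number were compared, lower in 4 of 4 numbers against wildtype and higher in 4 of 4 against *ubql-1(tm1574)*. That holds for TMM factors over 16 libraries; with the housekeeping scaling the fitted effects ran the same way, called higher in both, at 0.26 and 0.48. The test of that difference, the interaction in edgeR, gave 0.38 on the log2 scale with an adjusted p of 0.132, and so was not called.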

How the results depend on the processing

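Counts of called members moved with the processing. Shares in brackets are of all genes called in the same fit. In *hsf-1* OE against wildtype the count of 1 (67.3%) became 2 with DESeq2 (64.3%) and with RLE factors (64%), *elo-2* and *elo-5*, lower, 3 in the fit of 16 libraries (68.9%), 8 with the housekeeping scaling (70.8%), 2 with the replicate block (67.6%; *fat-3* and *fat-5*) and 0 with the 2-fold limit (26.2%); without the low-count filter (42%) it stayed 1 but named *elo-5* in place of *fat-3*. In *ubql-1(tm1574)* against wildtype the count of 1 (8.31%) became 0 in the fit of 16 libraries (5.85%) and with the 2-fold limit (2.41%), and 2 with the replicate block (30.2%). In the strain with both changes against *hsf-1* OE the count of 0 (0.932%) became 1 with DESeq2 (2.89%) and with the replicate block (6.39%). Against *ubql-1(tm1574)* it went from 0 (59.1%) to 8 with the housekeeping scaling (57.3%) and 2 with the replicate block (66.3%), and against wildtype from 1 (70.4%) to 2 with DESeq2 (68.7%), 9 with the housekeeping scaling (70.5%), 2 with the replicate block (73.5%) and 0 with the 2-fold limit (23.7%). The interaction went from 0 (0.658%) to 2 with DESeq2 (5.68%), and the replicate block (10.2%) changed no member's call there. Leaving out single libraries gave 1 to 2, 0 to 1, 0 to 0, 0 to 1, 1 to 2 and 0 to 1 called members in these 6 comparisons, in the order given. In *hsf-1* OE against wildtype no member was called higher without *hsf-1* OE replicate 1, 2 or 3. *elo-5* was called lower there, with *elo-2* for replicate 1. Over all genes that comparison gave from 4317 higher and 4212 lower of 14910 to 5289 and 4982 of 15084. *ubql-1(tm1574)* against wildtype gave from 71 and 32 of 14284 to 1113 and 840 of 14359. The strain with both changes gave from 28 and 30 of 15736 to 71 and 81 of 15786 against *hsf-1* OE. It gave from 3908 and 3470 of 15594 to 4763 and 4484 of 15466 against *ubql-1(tm1574)*. Against wildtype it gave from 5211 and 4612 of 15050 to 5733 and 4874 of 15154. The interaction gave from 15 and 24 of 15836 to 1165 and 494 of 15846, the latter without *hsf-1* OE replicate 1. Members with a fitted value near 0 often changed sign: in *hsf-1* OE against wildtype *fat-1*, *fat-4*, *fat-6* and *elo-1* were at -0.12, -0.12, -0.03 and -0.12 with DESeq2, and *fat-2* at 0.33 with the housekeeping scaling. Further sign changes included *fat-7* in *hsf-1* OE against wildtype, 0.15 with the housekeeping scaling and -0.85 to 0.57 over left-out libraries, *fat-7* in *ubql-1(tm1574)* and in the strain with both changes against wildtype, -0.71 to 0.25 and -0.94 to 0.24 over left-out libraries, and *elo-2* and *elo-5* in *hsf-1* OE against wildtype, 0.26 and 0.11 with the housekeeping scaling. The cause was not tested. *fat-5* and *fat-7* had SEs of 0.25 to 0.56 in the 5 pairwise comparisons; the part of depth in them was not tested.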
